A study of Mus musculus with 10 samples.

Results

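Transcript levels of 10 genes that move calcium in and out of the sarcoplasmic reticulum of heart muscle were compared between p38δ knockout-labelled and WT-labelled mouse hearts after doxorubicin. The 10 genes are Ryr2, Fkbp1b, Casq2, Trdn, Jph2, Atp2a2, Pln, Hrc, Camk2d and Slc8a1. They were chosen by name for their role, not by their values, although earlier results of these data were known. Each was found once by its Ensembl identifier among the 78298 genes of the count table. Of the 10 genes, 9 passed the filter on low counts and entered the test across genes, and Fkbp1b, with 5 to 19 counts in a library, did not.

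The p38δ knockout-labelled group held 5 heart libraries from female mice with a germline deletion of p38δ, a member of the stress-responsive p38 MAP kinases and the product of Mapk13. The WT-labelled group held 5 heart libraries from female mice with no such deletion. Both groups are on the C57BL/6J background. Every mouse was given 1 injection of doxorubicin, an anthracycline chemotherapy drug that can damage heart muscle, into the peritoneum at 30 mg/kg, and hearts were taken 72 h later. The question is whether loss of p38δ goes with other levels of these transcripts in drug-treated hearts. No heart without the drug was measured, so an effect of doxorubicin itself cannot be read from these values. The deletion is in every cell of the animal, and neither its exact extent nor the age of the mice is given in the sources used here.

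In a heart muscle cell, calcium stored in the sarcoplasmic reticulum is released through the ryanodine receptor at each beat, binds the contractile filaments, and is then removed so that the cell relaxes. Most of it is pumped back by SERCA2a, which phospholamban holds in check until phospholamban is phosphorylated, and the rest leaves the cell through the sodium-calcium exchanger. Changes in these proteins are known in failing hearts, and the release channel and the pump have been studied as targets of anthracyclines.

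Total counts ranged from 21403189 to 33477767 in the knockout-labelled libraries and from 22082289 to 40627138 in the WT-labelled libraries. Mapk13 (ENSMUSG00000004864, chromosome 17) had 12, 10, 10, 15 and 9 counts in knockout-labelled libraries 1 to 5, against 292, 5, 2, 1 and 4 counts in WT-labelled libraries 1 to 5. Counts were thus higher in every knockout-labelled library than in 4 of the 5 WT-labelled ones, and the exception was WT-labelled library 1. The target transcript therefore does not bear out the labels in those 4 libraries. Apart from WT-labelled library 1 these counts are few, and the extent of the deletion is not given, so Mapk13 cannot check the labels. Groups are named here by their labels. Libraries of the groups also carry different title prefixes, so genotype and any batch that goes with the titles cannot be told apart. Nothing in the labels ties the libraries to separate animals beyond calling them samples, so p-values measure the spread between these libraries. Among the 10, 2 libraries stood apart from the rest. WT-labelled library 1 was low in heart muscle transcripts and held markers of other tissues, and knockout-labelled library 4 was high in heart muscle transcripts. Fold changes are given with and without them. Across all genes tested, 59 of 16700 were called, meaning a Benjamini-Hochberg adjusted p under 0.05 in edgeR's quasi-likelihood test. Mapk13 was not among them (edgeR, adjusted p = 0.78).

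None of the 9 tested calcium cycling genes was called by edgeR, against 0.353% of all tested genes (0.24% higher and 0.114% lower). The number with an unadjusted p under 0.05 was also 0 of 9, against 6.86% of all tested genes. DESeq2 and limma voom called 0 of the 9 as well. In none of the 9 did the values of the knockout-labelled and WT-labelled libraries separate without overlap, against 1.78% of all tested genes. The fitted log2 fold change, knockout over WT, was above 0 for 7 genes and below 0 for 2. Its median was 0.17 over the 9, beside -0.01 over all tested genes, of which 46.6% were above 0. The 95% intervals of the 9 fold changes together ran from 0.667-fold to 1.62-fold, so changes inside that span are not shown to be absent. In whole-heart RNA, fewer cells of a type and less RNA per cell cannot be told apart.

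**Figure D1:**
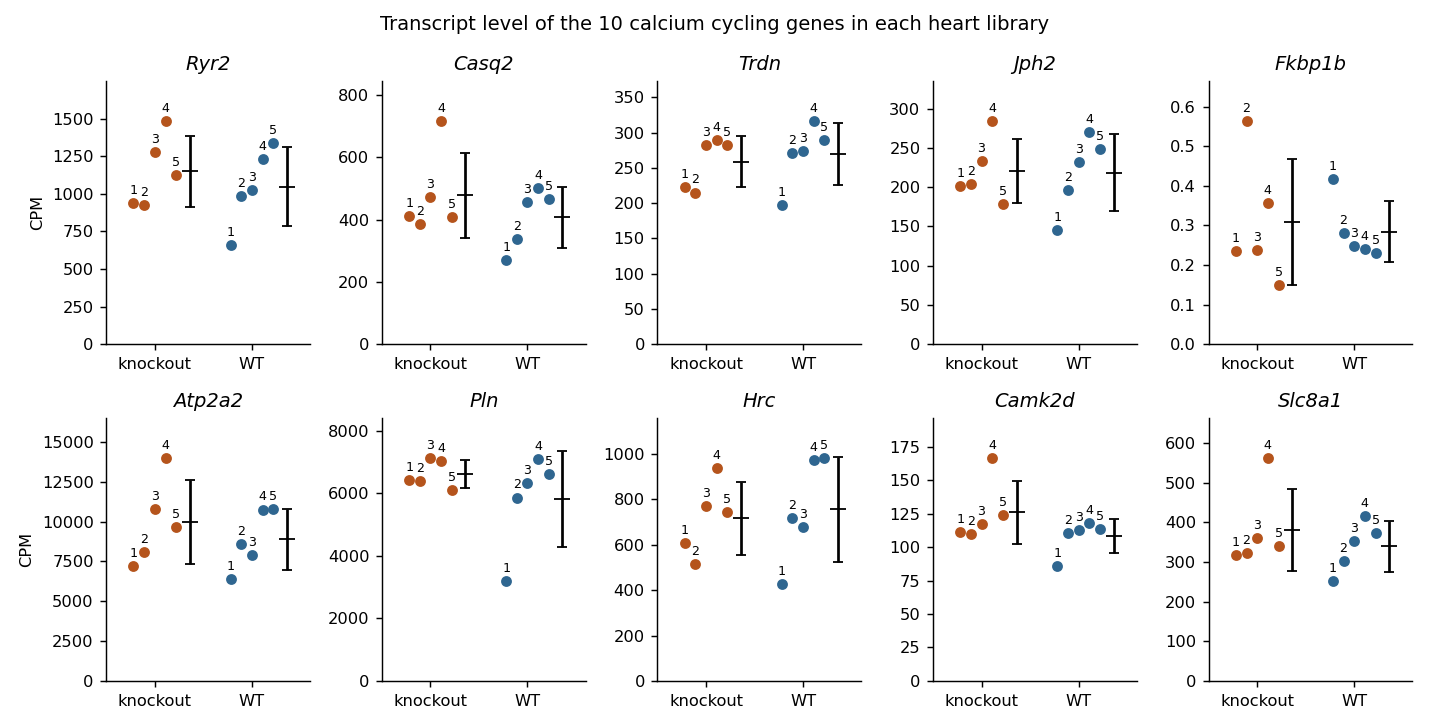
Each panel plots 1 gene in CPM (counts scaled to library size, linear axis from 0), with a numbered point for each library and the mean with its SD beside each group of 5, knockout-labelled at left and WT-labelled at right. The ranges of the groups overlap in all 10 panels, WT-labelled library 1 is the lowest point in 9 of them, and Fkbp1b stays under 0.6 CPM.

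Ryr2 encodes the cardiac ryanodine receptor, the channel through which calcium leaves the reticulum (ENSMUSG00000021313, GRCm39 chromosome 13, 11567988 to 12121870, minus strand). Its level, in counts scaled to a common library size (CPM), was 936, 928, 1278, 1483 and 1125 CPM in knockout-labelled libraries 1 to 5, against 662, 985, 1028, 1228 and 1339 CPM in WT-labelled libraries 1 to 5. The knockout-labelled range lay inside the WT-labelled range except for library 4. The means were 1149.8 ± 236 CPM in knockout-labelled and 1049 ± 260.3 CPM in WT-labelled libraries (SD, n = 5 each). The fitted log2 fold change was 0.13 with a standard error of 0.20 and a 95% interval of -0.31 to 0.57 (edgeR, adjusted p = 0.91).

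Fkbp1b encodes calstabin 2 (FKBP12.6), a small immunophilin that binds the closed ryanodine receptor (ENSMUSG00000020635, chromosome 12, 4883174 to 4891611, minus strand). It had only 6, 16, 5, 11 and 5 counts in knockout-labelled libraries 1 to 5, against 19, 11, 8, 5 and 9 counts in WT-labelled libraries 1 to 5. On the CPM scale these came to 0.309 ± 0.16 in knockout-labelled and 0.284 ± 0.0769 in WT-labelled libraries (SD, n = 5 each), with overlapping ranges. A two-sided exact permutation test on log2(CPM + 1) gave p = 0.857. With no filter on low counts, edgeR gave a log2 fold change of 0.11 (adjusted p = 0.965). The 95% Poisson interval of the lowest library, knockout-labelled library 5, was 0.0486 to 0.349 CPM and that of the highest, knockout-labelled library 2, was 0.322 to 0.915 CPM. These intervals cover counting error only. Fkbp1a, its close relative encoding FKBP12, was far more abundant at 93.2 ± 2.68 CPM in knockout-labelled and 84.1 ± 5.24 CPM in WT-labelled libraries. Per kilobase of transcript, Fkbp1a stood at 51.8 CPM in knockout-labelled and 46.7 CPM in WT-labelled libraries, and Fkbp1b at 0.31 CPM in knockout-labelled and 0.285 CPM in WT-labelled libraries. The Fkbp1a log2 fold change of 0.15 with a standard error of 0.06 did not pass the test (edgeR, adjusted p = 0.714).

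Casq2 encodes calsequestrin 2, the calcium-binding protein of the reticulum lumen that stores calcium beside the release channel (ENSMUSG00000027861, chromosome 3, 101993234 to 102056307, plus strand). Its values were 412, 386, 472, 716 and 407 CPM in knockout-labelled libraries 1 to 5, against 271, 339, 457, 502 and 468 CPM in WT-labelled libraries 1 to 5. Knockout-labelled library 4 stood well above every other library and WT-labelled library 1 below. Casq2 had the largest positive fitted log2 fold change of the 9, 0.23 with a standard error of 0.21 and a 95% interval of -0.23 to 0.69 (edgeR, adjusted p = 0.839).

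Trdn encodes triadin, which ties calsequestrin to the ryanodine receptor (ENSMUSG00000019787, chromosome 10, 32956550 to 33356376, plus strand). It had 223, 215, 283, 289.6 and 282 CPM in knockout-labelled libraries 1 to 5, against 198, 271, 274, 316 and 290.1 CPM in WT-labelled libraries 1 to 5. The groups overlapped, with the lowest and the highest value both in WT-labelled libraries. Trdn had a log2 fold change of -0.06 with a standard error of 0.14 (95% interval -0.36 to 0.24, edgeR, adjusted p = 0.945). The gene D830005E20Rik, a long non-coding RNA (chromosome 10, 33075157 to 33132423), lies on the opposite strand within Trdn and held 36.9% as many counts as Trdn over the 10 libraries. It averaged 99.2 ± 32.3 CPM in knockout-labelled and 99.5 ± 24.7 CPM in WT-labelled libraries (edgeR, adjusted p = 0.997). Whether counting used strand is not given in the sources used here, so reads of Trdn and of this RNA cannot be told apart where they overlap.

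Jph2 encodes junctophilin 2, which holds the reticulum close to the T-tubule membrane (ENSMUSG00000017817, chromosome 2, 163178162 to 163239920, minus strand). The values were 202, 204, 233, 284 and 179 CPM in knockout-labelled libraries 1 to 5, against 146, 196, 232, 270.0 and 248 CPM in WT-labelled libraries 1 to 5. The groups overlapped over most of their range. For Jph2 the log2 fold change was 0.01 with a standard error of 0.17 and a 95% interval of -0.36 to 0.39 (edgeR, adjusted p = 0.99).

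Atp2a2 encodes SERCA2, the pump that returns calcium to the reticulum (ENSMUSG00000029467, chromosome 5, 122591575 to 122640903, minus strand). It had 7242, 8119, 10812, 14006 and 9678 CPM in knockout-labelled libraries 1 to 5, against 6396, 8576, 7912, 10763 and 10798 CPM in WT-labelled libraries 1 to 5. Library 4 of the knockout-labelled group was the highest and library 1 of the WT-labelled group the lowest, with the other 8 interleaved. The log2 fold change was 0.17 with a standard error of 0.22 and a 95% interval of -0.32 to 0.65 (edgeR, adjusted p = 0.893).

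Pln encodes phospholamban, the membrane peptide that slows the pump (ENSMUSG00000038583, chromosome 10, 53199622 to 53223512, plus strand). It had 6431, 6397, 7134, 7027 and 6112 CPM in knockout-labelled libraries 1 to 5, against 3201, 5867, 6318, 7095 and 6623 CPM in WT-labelled libraries 1 to 5. The knockout-labelled values lay close together and those of WT-labelled libraries 2 to 5 spanned a similar range, while WT-labelled library 1 fell far below. The coefficient of variation was 6.64% in knockout-labelled and 26.3% in WT-labelled libraries. For Pln the log2 fold change was 0.19 with a standard error of 0.21 and a 95% interval of -0.26 to 0.63 (edgeR, adjusted p = 0.866). Without WT-labelled library 1 it was 0.04. The long non-coding RNA Gm47644 on the opposite strand held 1.84% as many counts as Pln.

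Hrc encodes the histidine-rich calcium-binding protein, a lumenal protein that binds both SERCA2 and triadin (ENSMUSG00000038239, chromosome 7, 44984681 to 44988401, plus strand). The values were 609.5, 516, 772, 939 and 746 CPM in knockout-labelled libraries 1 to 5, against 428, 719.6, 680.1, 975 and 983 CPM in WT-labelled libraries 1 to 5. WT-labelled libraries held both the lowest value and the 2 highest. Its log2 fold change was -0.08 with a standard error of 0.23 and a 95% interval of -0.58 to 0.42 (edgeR, adjusted p = 0.958).

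Camk2d encodes the delta chain of calcium/calmodulin-dependent kinase II, the main cardiac form, which phosphorylates the ryanodine receptor and phospholamban (ENSMUSG00000053819, chromosome 3, 126389945 to 126639982, plus strand). It had 111, 110.0, 118, 167 and 124 CPM in knockout-labelled libraries 1 to 5, against 85.9, 111, 113, 118 and 114 CPM in WT-labelled libraries 1 to 5. Apart from knockout-labelled library 4 and WT-labelled library 1, all values lay between 110.0 and 124 CPM. Of the 9 tested genes it had the smallest p, with a log2 fold change of 0.22, a standard error of 0.13 and a 95% interval of -0.06 to 0.50 (edgeR, unadjusted p = 0.114, adjusted p = 0.75). Without these 2 libraries the log2 fold change was 0.03.

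Slc8a1 encodes NCX1, the sodium-calcium exchanger of the cell membrane (ENSMUSG00000054640, chromosome 17, 81680534 to 82045891, minus strand). Its values were 318, 323, 361, 563 and 339.8 CPM in knockout-labelled libraries 1 to 5, against 253, 302, 353, 417 and 374 CPM in WT-labelled libraries 1 to 5. Again knockout-labelled library 4 was the highest and WT-labelled library 1 the lowest, and the others overlapped. The log2 fold change was 0.17 with a standard error of 0.18 and a 95% interval of -0.23 to 0.57 (edgeR, adjusted p = 0.865). Slc8a1 shares chromosome 17 with Mapk13, 52.7 Mb away, and 45 of the 827 tested genes of that chromosome were called. Among the 25 tested genes within 2 Mb of Slc8a1, 0 were called by edgeR and 1 had an unadjusted p under 0.05. DESeq2 and limma voom also called 0 of them. The nearest called gene, Gm18736 (65745123 to 65745692), lay 15.9 Mb away.

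Promoter windows from 250 bases before to 50 after the annotated start were read from the RefSeq table (GRCm38.p6) for 8 of the 10 genes, and each matched once, exactly, in GRCm39. The windows of Ryr2 (chr13:12121782-12122081, minus strand), Casq2 (chr3:101993481-101993780, plus strand), Slc8a1 (chr17:82045767-82046066, minus strand), Camk2d (chr3:126390350-126390649, plus strand) and Pln (chr10:53213532-53213831, plus strand), in GRCm39, are printed 5′ to 3′. The first 4 genes, like Atp2a2 and Jph2, were each highest in knockout-labelled library 4 and lowest in WT-labelled library 1. Pln varied least of the 9 in the knockout-labelled group. Capitals mark matches on either strand to 4 motifs: TATAAA, known as the TATA box; AGATAA, which GATA factors bind; CANNTG, the E-box; and CATTCC, the M-CAT motif.
Ryr2: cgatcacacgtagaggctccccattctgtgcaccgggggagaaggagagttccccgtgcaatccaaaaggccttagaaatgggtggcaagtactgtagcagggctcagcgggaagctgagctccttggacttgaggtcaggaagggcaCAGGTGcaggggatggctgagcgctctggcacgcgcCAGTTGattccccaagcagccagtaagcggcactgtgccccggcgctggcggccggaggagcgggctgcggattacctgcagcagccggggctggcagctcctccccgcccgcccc
Casq2: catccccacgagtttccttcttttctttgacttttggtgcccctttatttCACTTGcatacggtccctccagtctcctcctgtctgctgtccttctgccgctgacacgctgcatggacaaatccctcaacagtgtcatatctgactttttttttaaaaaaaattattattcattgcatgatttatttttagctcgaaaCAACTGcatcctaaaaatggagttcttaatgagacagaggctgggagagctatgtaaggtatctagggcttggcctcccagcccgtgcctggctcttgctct
Slc8a1: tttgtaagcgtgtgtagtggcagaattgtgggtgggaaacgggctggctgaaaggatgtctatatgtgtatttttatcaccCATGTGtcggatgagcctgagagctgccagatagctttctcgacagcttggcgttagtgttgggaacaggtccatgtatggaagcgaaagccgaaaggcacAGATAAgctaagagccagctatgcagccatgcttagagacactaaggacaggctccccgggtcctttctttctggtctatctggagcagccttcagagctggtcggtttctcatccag
Camk2d: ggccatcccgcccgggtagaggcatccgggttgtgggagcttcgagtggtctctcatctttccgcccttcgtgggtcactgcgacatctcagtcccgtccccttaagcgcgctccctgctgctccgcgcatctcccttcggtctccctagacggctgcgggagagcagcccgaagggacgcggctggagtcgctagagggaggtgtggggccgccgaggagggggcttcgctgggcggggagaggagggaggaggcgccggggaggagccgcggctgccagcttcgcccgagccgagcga
Pln: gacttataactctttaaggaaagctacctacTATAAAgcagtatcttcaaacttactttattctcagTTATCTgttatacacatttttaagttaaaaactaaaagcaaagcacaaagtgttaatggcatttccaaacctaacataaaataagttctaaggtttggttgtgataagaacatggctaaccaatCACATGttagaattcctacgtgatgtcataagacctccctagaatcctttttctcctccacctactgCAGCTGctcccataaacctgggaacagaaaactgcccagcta

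These windows differ in composition. That of Ryr2 holds 18 CG dinucleotides, that of Casq2 6, that of Slc8a1 9, that of Camk2d 31 and that of Pln 1, beside a median of 7 over 32851 promoters. Of the 8 genes, Pln alone has a TATA box match, at -219 from the start, and Pln and Slc8a1 alone have a GATA match, at -183 and -68. TATA box matches occur in 13.6% and GATA matches in 11.2% of all these promoters. E-box matches were found for 6 of the 8 genes, the exceptions being Camk2d and Fkbp1b, and in 72.3% of all promoters. No window of the 8 genes holds the M-CAT letters, which occur in 14.7% of promoters. The E-box letters read the same on both strands, and a match is a description of sequence, not of binding.

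Individual libraries stood apart across these genes. WT-labelled library 1 was the lowest of all 10 libraries for each of the 9 tested genes. Knockout-labelled library 4 was the highest of its group for 8 of the 9 and the highest of all 10 libraries for 6. The median deviation of the 9 genes from their own mean log2 CPM was -0.15, -0.16, 0.11, 0.47 and 0.07 in knockout-labelled libraries 1 to 5, against -0.56, -0.10, 0.00, 0.23 and 0.15 in WT-labelled libraries 1 to 5. The median coefficient of variation of the 9 genes was 20.5% in knockout-labelled and 22.3% in WT-labelled libraries. Over the 1083 tested genes with a mean of at least 100 CPM it was 11.1% in knockout-labelled and 14.97% in WT-labelled libraries.

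Contractile transcripts moved with these libraries. The summed level of 13 ventricular cardiomyocyte markers, such as Myh6, Myl2 and Tnnt2, was 35023, 30809, 44310, 70959 and 36815 CPM in knockout-labelled libraries 1 to 5, against 24099, 36407, 38691, 55709 and 48199 CPM in WT-labelled libraries 1 to 5. All 13 markers were tested, none was at 0, all 13 had a fitted log2 fold change above 0, and 0 were called or had an unadjusted p under 0.05 by edgeR. WT-labelled library 1 was the lowest in this sum and knockout-labelled library 4 the highest, as for most of the calcium genes. That WT-labelled library also held 1444 CPM of 7 atrial markers, against 46.3 to 331 CPM in the other 9 libraries, and 518 CPM of 7 fast skeletal muscle markers, against 1.29 to 10.7 CPM. Its lung and airway markers summed to 855 CPM and those of WT-labelled library 3 to 76.0 CPM, while no other library passed 2.61 CPM. It was also the highest for fibroblast markers (1565 CPM, against 686 to 939 CPM in the other 9), macrophage markers (364 CPM, against 93.2 to 143 CPM) and mesothelial markers (95.8 CPM, against 12.4 to 34.0 CPM). Of 6 mesothelial markers, all had a fitted log2 fold change below 0, 5 had an unadjusted p under 0.05 and 0 were called by edgeR. All 5 tested atrial and all 4 tested fast skeletal markers were also below 0. Of these, 4 atrial and 3 fast skeletal markers had an unadjusted p under 0.05, and 0 were called by edgeR. Fibroblast and macrophage markers had 1 of 7 each at an unadjusted p under 0.05, beside 6.86% of all tested genes. Mitochondrially encoded genes took 23.0% of its counts, against 28.3% to 30.9% in the other libraries. The part of these differences between libraries in the calcium cycling results was not tested.

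**Figure D2:**
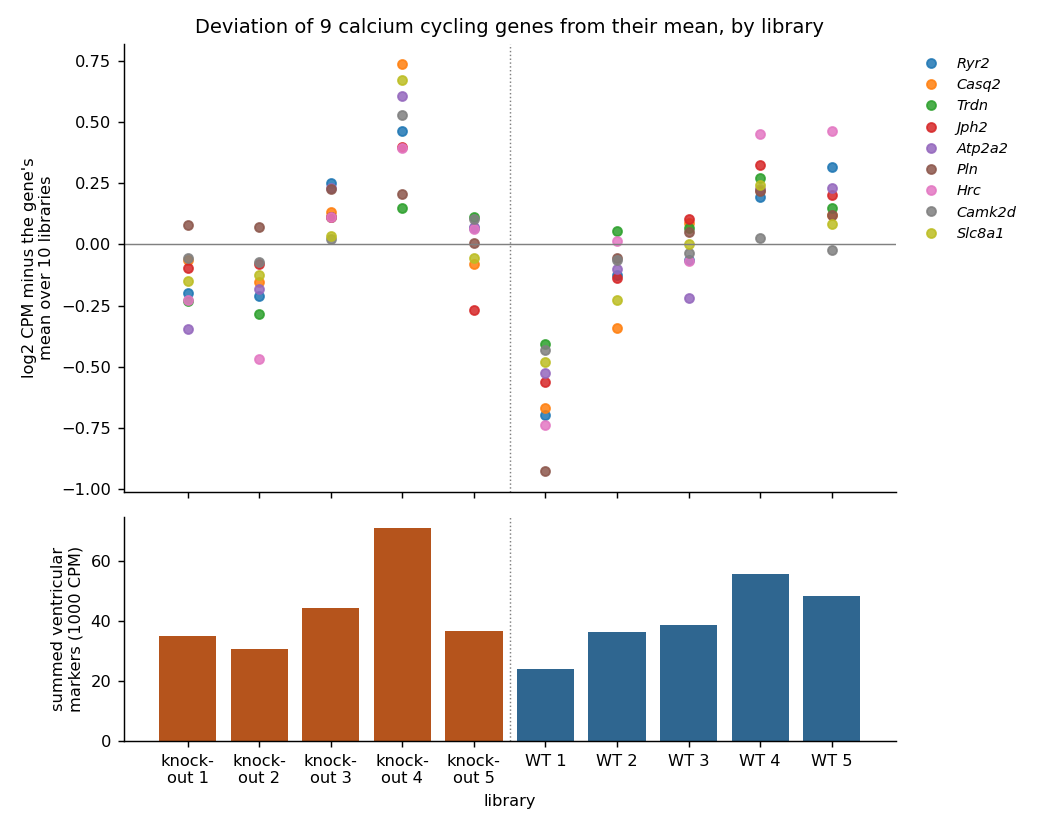
The upper panel plots, for each library, the log2 CPM of each of the 9 tested calcium cycling genes minus that gene's mean over the 10 libraries, with 1 colour for each gene. The lower panel gives the summed CPM of 13 ventricular cardiomyocyte markers as bars, knockout-labelled libraries at left and WT-labelled at right. All 9 genes lie below 0 in WT-labelled library 1 and above 0 in knockout-labelled library 4, which also have the lowest and highest bars.

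Set against the ventricular markers of the same library, the order changed. Atp2a2 amounted to 20.7%, 26.4%, 24.4%, 19.7% and 26.3% of the marker sum in knockout-labelled libraries 1 to 5, against 26.5%, 23.6%, 20.45%, 19.3% and 22.4% in WT-labelled libraries 1 to 5. On this scale WT-labelled library 1 was the highest of all 10 for Atp2a2, where it had been the lowest in CPM. Ryr2 came to 2.74% ± 0.394 of the sum in knockout-labelled and 2.62% ± 0.236 in WT-labelled libraries (SD, n = 5 each). Knockout-labelled library 4, with the largest marker sum, had the lowest share for Ryr2, at 2.09%.

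Without WT-labelled library 1 and knockout-labelled library 4, the direction of most fitted values of the 9 genes turned. In that fit 86 of 16494 tested genes were called by edgeR. The median log2 fold change over all of them was -2.8e-05. Of the 9 genes, 2 were then above 0 and 7 below, with 0 called by edgeR and 0 at an unadjusted p under 0.05. Pln at 0.01 and Camk2d at 0.03 were the 2 above 0. The furthest from 0 was Hrc, at -0.34 with a standard error of 0.16, followed by Jph2 at -0.21 and Trdn at -0.20. Ryr2 at -0.10, Slc8a1 at -0.10, Atp2a2 at -0.08 and Casq2 at -0.07 changed sign, as did Jph2. The 95% intervals of the 9 fold changes then ran from 0.62-fold to 1.17-fold. Leaving out WT-labelled library 1 alone gave a median of 0.04, and leaving out knockout-labelled library 4 alone gave 0.01, beside 0.17 with all 10 libraries.

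**Figure D3:**
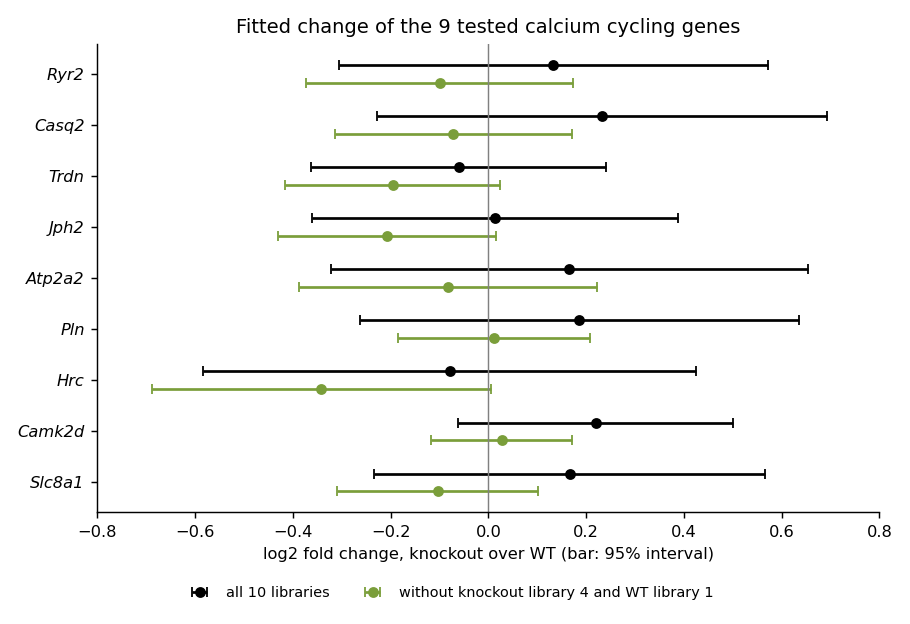
For each of the 9 tested genes the point is the fitted log2 fold change (knockout over WT, linear axis) and the bar its 95% interval, black with all 10 libraries and green without knockout-labelled library 4 and WT-labelled library 1. Every interval includes 0, and the green points lie left of the black ones for all 9 genes.

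Ratios between partner genes within a library do not depend on the scaling between libraries, and 6 were compared with two-sided exact permutation tests. With 5 libraries a group the smallest p such a test can give is 0.00794. Pln, the inhibitor, came to 88.8%, 78.8%, 66.0%, 50.2% and 63.2% of Atp2a2, the pump, in knockout-labelled libraries 1 to 5, against 50.05%, 68.4%, 79.9%, 65.9% and 61.3% in WT-labelled libraries 1 to 5. The groups overlapped, and the lowest ratios belonged to knockout-labelled library 4 and WT-labelled library 1, the libraries with the highest and the lowest Atp2a2. The means were 69.4% ± 14.9 in knockout-labelled and 65.1% ± 10.8 in WT-labelled libraries (exact permutation test, p = 0.651, adjusted over the 6 ratios 0.867).

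Triadin relative to calsequestrin averaged 55.9% ± 10.5 in knockout-labelled and 67.6% ± 8.57 in WT-labelled libraries (SD, n = 5 each), a difference that did not pass the exact permutation test. Trdn came to 54.2%, 55.7%, 60.0%, 40.4% and 69.4% of Casq2 in knockout-labelled libraries 1 to 5, against 73.0%, 80.0%, 59.9%, 63.0% and 62.0% in WT-labelled libraries 1 to 5. The highest values were in WT-labelled libraries 1 and 2 and the lowest in knockout-labelled library 4. The log2 difference of -0.29 had an exact permutation p of 0.0873, 0.31 after adjustment. It was -0.17 without knockout-labelled library 4 and -0.14 without that library and WT-labelled library 1. Without single libraries its adjusted exact permutation p ran between 0.143 and 0.643. Hrc relative to Atp2a2 was 7.27% ± 0.82 in knockout-labelled and 8.37% ± 0.989 in WT-labelled libraries (log2 difference -0.20, exact permutation p = 0.103, adjusted 0.31). Knockout-labelled library 1, at 8.42%, lay among the WT-labelled values, and WT-labelled library 1, at 6.69%, lay among the knockout-labelled ones. Casq2 relative to Ryr2 was 41.4% ± 5.04 in knockout-labelled and 39.1% ± 4.32 in WT-labelled libraries (exact permutation p = 0.444). The exchanger relative to the pump, Slc8a1 to Atp2a2, was 3.85% in both groups, with an SD of 0.423 in knockout-labelled and 0.402 in WT-labelled libraries (exact permutation p = 0.968). Fkbp1b relative to Ryr2 was 0.0284% in knockout-labelled and 0.0305% in WT-labelled libraries (exact permutation p = 0.722), on at most 19 counts of Fkbp1b in a library.

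**Figure D4:**
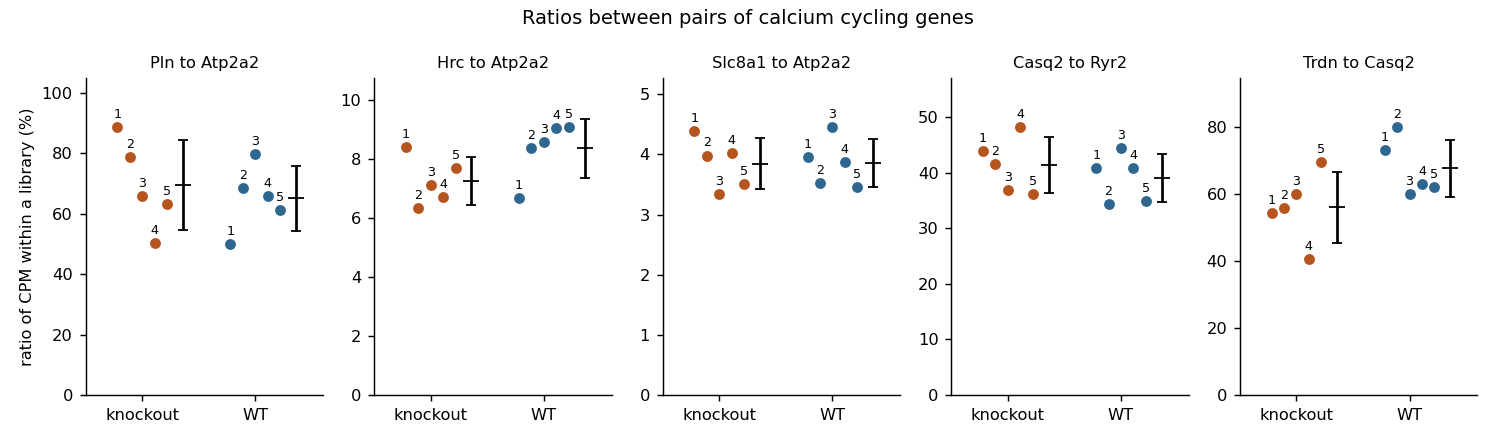
Each panel plots 1 ratio of CPM in percent (linear axis from 0), with a numbered point for each library and the mean with its SD beside each group of 5, knockout-labelled at left and WT-labelled at right. The groups overlap in all 5 panels shown, most closely in Slc8a1 to Atp2a2, and the ratio of Fkbp1b to Ryr2 is left out because of its few counts.

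Levels of different genes were compared per kilobase of the canonical transcript. Atp2a2 stood highest, at 2247 ± 596 CPM per kilobase in knockout-labelled and 2003 ± 428 in WT-labelled libraries, and ranked 18th of the 13356 tested protein-coding genes. Pln followed at 1613 in knockout-labelled and 1418 in WT-labelled libraries, then Hrc at 293 in knockout-labelled and 309 in WT-labelled libraries. Below these came Slc8a1 at 117 in knockout-labelled and 104 in WT-labelled libraries and Casq2 at 86.6 in knockout-labelled and 73.7 in WT-labelled libraries. Ryr2 stood at 68.2 in knockout-labelled and 62.2 in WT-labelled libraries. Jph2 stood at 51.7 in knockout-labelled and 51.2 in WT-labelled libraries and Trdn at 23.3 in knockout-labelled and 24.3 in WT-labelled libraries. Camk2d reached 17.1 in knockout-labelled and 14.7 in WT-labelled libraries, and Fkbp1b was the lowest. Each neighbour in this order kept its place in all 10 libraries, although mean ± SD overlapped between Atp2a2 and Pln, Slc8a1 and Casq2, Casq2 and Ryr2, Ryr2 and Jph2, and, in the knockout-labelled group, Trdn and Camk2d. The order depended on the length used. With merged exons of all transcripts as the length, Pln exceeded Atp2a2 in 8 libraries, and Slc8a1, whose length then was 18996 bases in place of 3265, fell below Casq2 in all 10.

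For most families the member named here was the most abundant relative in the heart per kilobase of the canonical transcript. Per kilobase, Ryr3 stood at 0.0783 CPM in knockout-labelled and 0.127 CPM in WT-labelled libraries, far under Ryr2. Casq1, the skeletal muscle calsequestrin, stood at 0.881 CPM per kilobase in knockout-labelled and 1.63 in WT-labelled libraries, and Jph1 at 5.51 in knockout-labelled and 5.02 in WT-labelled libraries. WT-labelled library 1 raised the WT-labelled means of Ryr3 and Casq1. Ryr3 had 5.18 CPM there, 0.590 to 1.99 CPM in the other WT-labelled libraries and 0.762 to 1.77 CPM in knockout-labelled ones. For Casq1 these were 9.36, 1.76 to 2.32 and 1.09 to 2.56 CPM. Camk2g was nearest to its relative, with 8.99 CPM per kilobase in knockout-labelled and 8.52 in WT-labelled libraries beside the Camk2d values above. With merged exons as the length, Camk2d stood at 4.72 in knockout-labelled and 4.05 in WT-labelled libraries. Relatives were not compared by that length. The exception among the families was the calstabin pair, in which Fkbp1a exceeded Fkbp1b in all 10 libraries. Atp2a1, the fast skeletal muscle pump, had 2.20, 1.41, 1.38, 2.04 and 0.868 CPM in knockout-labelled libraries 1 to 5, against 128, 0.639, 0.404, 0.866 and 0.643 CPM in WT-labelled libraries 1 to 5. Leaving aside WT-labelled library 1, which also held the fast skeletal markers, the values were low in both groups. Each knockout-labelled value was then above the remaining WT-labelled ones, 0.868 CPM being the lowest of the former and 0.866 CPM the highest of the latter. The share of all tested genes that separate without that library was not computed. With all 10 libraries the groups overlapped, and the Atp2a1 log2 fold change was -4.06 with a standard error of 1.78 (edgeR, unadjusted p = 0.0483, adjusted p = 0.717). Sln, which encodes the atrial pump inhibitor sarcolipin, had 0.0393, 0.0704, 0, 0 and 0 CPM in knockout-labelled libraries 1 to 5, against 104, 17.3, 1.80, 0.144 and 0 CPM in WT-labelled libraries 1 to 5. WT-labelled libraries 1 and 2, the highest for Sln, were also the highest for the summed atrial markers, of which Sln is itself 1.

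**Figure D5:**
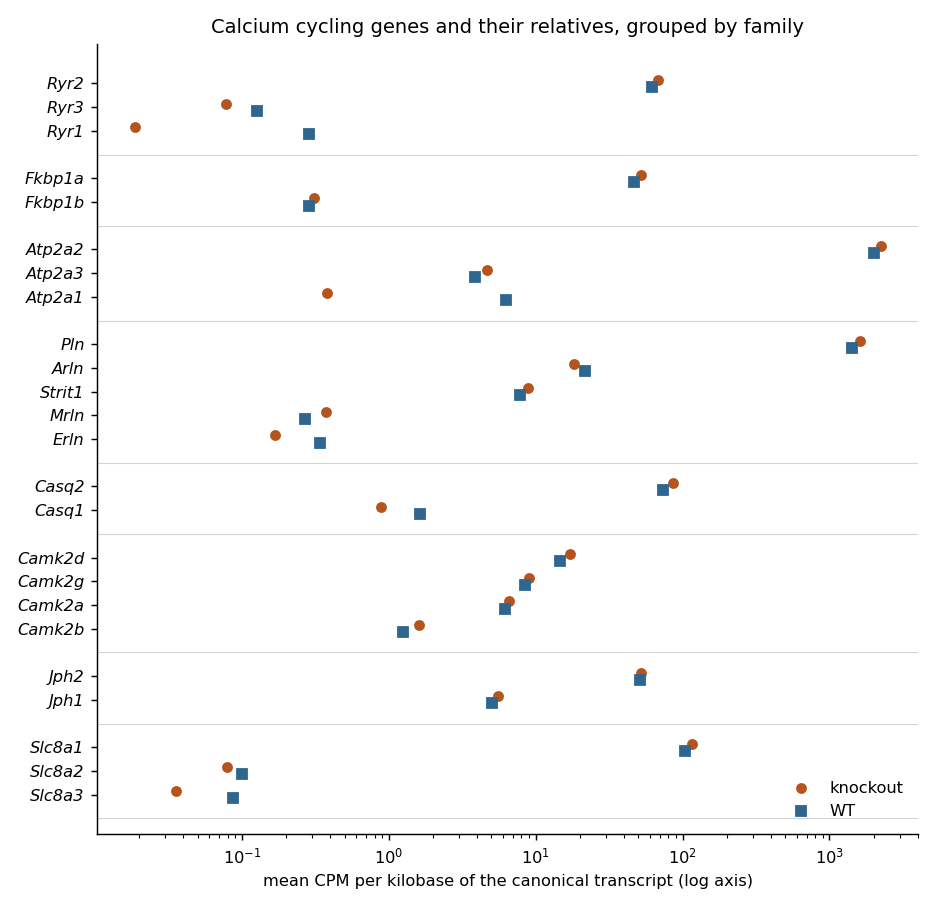
Mean CPM per kilobase of the canonical transcript (log axis) is shown for the calcium cycling genes and their relatives, grouped by family, with circles for the 5 knockout-labelled and squares for the 5 WT-labelled libraries. Fkbp1a lies far to the right of Fkbp1b, and the separated Ryr1 and Atp2a1 squares rest on WT-labelled library 1. That library also raises the squares of Ryr3, Casq1, Slc8a3 and Erln.

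Other genes of calcium handling were read from 9 lists holding 139 genes, of which 127 were tested. None of the 127 was called by edgeR, and 9 had an unadjusted p under 0.05, which is 7.09% of them, beside 6.86% of all tested genes. DESeq2 and limma voom also called 0. Of the 127, 81 had a fitted log2 fold change above 0 and 46 below, with a median of 0.02. Over all tested genes 46.6% were above 0, with a median of -0.01. The groups did not overlap for 5 of the 127 genes, beside 297 of 16700 (1.78%) over all tested genes. Among the 5 were Pde4d, Adcy5, Itpr3 and Ppp1r1a.

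In the kinase, phosphatase and beta-adrenergic list, 0 of 23 genes passed the test in either direction. Pde4d, a phosphodiesterase that breaks down cyclic AMP, had 24.6, 23.9, 24.2, 25.4 and 23.4 CPM in knockout-labelled libraries 1 to 5, against 20.9, 20.4, 21.3, 16.6 and 21.4 CPM in WT-labelled libraries 1 to 5. All 5 knockout-labelled values were above all 5 WT-labelled ones, with a log2 fold change of 0.27 and a standard error of 0.08 (edgeR, adjusted p = 0.534). Adcy5, a cardiac adenylyl cyclase, averaged 53.0 ± 4.30 CPM in knockout-labelled and 46.3 ± 1.95 CPM in WT-labelled libraries (edgeR, adjusted p = 0.624). Ppp1r1a, a protein phosphatase 1 inhibitor, averaged 0.35 ± 0.0892 CPM in knockout-labelled and 0.824 ± 0.723 CPM in WT-labelled libraries, where library 1 had 2.11 CPM (edgeR, adjusted p = 0.684).

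Among 14 release channel partners, 0 passed. Itpr3, an inositol trisphosphate receptor, had 9.95, 11.4, 10.5, 8.60 and 10.5 CPM in knockout-labelled libraries 1 to 5, against 15.2, 12.7, 11.7, 12.8 and 12.3 CPM in WT-labelled libraries 1 to 5. All knockout-labelled values were lower, with a log2 fold change of -0.34 and a standard error of 0.10 (edgeR, adjusted p = 0.534). Itpr3 lies on chromosome 17 (27275971 to 27343866), near Mapk13 (28987747 to 28999207). On that chromosome 45 of the 827 tested genes were called. Loss of p38δ and other differences of the region around Mapk13 cannot be told apart for Itpr3. Speg, a kinase of the dyad, and Selenon, a reticulum selenoprotein, had adjusted p of 0.787 and 0.876 by edgeR.

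Of 17 tested genes of store-operated entry and calcineurin signalling, 0 passed. Ppp3ca, the alpha catalytic chain of calcineurin, averaged 53.7 ± 4.42 CPM in knockout-labelled and 58.5 ± 2.35 CPM in WT-labelled libraries (edgeR, adjusted p = 0.749).

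In the remaining 6 lists the counts past the test were also 0 in each direction. These lists had 12 tested SERCA regulators and lumenal chaperones, 10 relatives of the calcium cycling genes, 11 dyad and T-tubule genes, 11 genes of sarcolemmal calcium removal and the sodium gradient, 13 mitochondrial calcium genes and 17 transcription factors. Arln, which encodes the pump regulator another-regulin, averaged 21.03 ± 1.80 CPM in knockout-labelled and 25.01 ± 5.11 CPM in WT-labelled libraries (edgeR, adjusted p = 0.74). Its highest value, 32.7 CPM, was in WT-labelled library 1. Ank2, which encodes ankyrin B, the anchor of the exchanger and the sodium pump, averaged 122 ± 31.1 CPM in knockout-labelled and 93.0 ± 16.0 CPM in WT-labelled libraries (edgeR, adjusted p = 0.714). Knockout-labelled library 4 had the highest Ank2 value, 174 CPM, and WT-labelled library 1 the lowest, 67.9 CPM, and the others overlapped. Atp1b1, the beta chain of the sodium pump, averaged 220.0 ± 25.9 CPM in knockout-labelled and 189 ± 11.7 CPM in WT-labelled libraries (edgeR, adjusted p = 0.714). The transcription factors with the smallest p, Thra, Tbx20 and Mef2c, had log2 fold changes of 0.19, -0.14 and 0.16.

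Atp2b2, a plasma membrane calcium pump, failed the filter on low counts. It had 0.0787, 0.0704, 0.0476, 0.13 and 0.0599 CPM in knockout-labelled libraries 1 to 5, against 1.65, 0.435, 0.217, 0.289 and 0.566 CPM in WT-labelled libraries 1 to 5. Every knockout-labelled value, of 1 to 4 counts, was below every WT-labelled value, of 6 to 75 counts. With no filter, the only setting in which it was tested, its log2 fold change was -2.97 (edgeR, adjusted p = 0.0244). It was the 1 gene of the lists to be called there, where 67 of 43316 genes were called. WT-labelled library 1, which held markers of other tissues, had the highest Atp2b2 value. No fit without the filter left that library out.

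Each of the 9 tested genes was matched to the 2 of 7846 genes, all of at least 10 CPM on average, whose mean-centred log2 CPM over the 10 libraries lay nearest by root mean square difference. The nearest to Ryr2 were Ogdh (0.0658) and Fsd2 (0.0725), and the nearest to Atp2a2 were Pdp2 (0.069) and Ptprm (0.0905). Casq2 was nearest to Krt222 (0.0787) and Pde1c (0.0837), and Slc8a1 to Tnfaip8 (0.0703) and Srl (0.0765). For Pln they were Ccdc141 (0.0755) and Rgs5 (0.0866), for Camk2d Arhgap21 (0.0684) and Stard7 (0.0742), and for Hrc Cycs (0.124) and Cacna2d1 (0.126). For Jph2 they were Mfn1 (0.0631) and Ptcd2 (0.0664), and for Trdn Mccc1 (0.0663) and Mzt1 (0.073). Ryr2 was the gene ranked 4 for likeness to Atp2a2, and Slc8a1 the gene ranked 4 for Casq2. For Trdn the nearest of the other calcium genes, Ryr2, ranked only 1097. All points share the same 10 libraries, so these distances describe profiles within this experiment only.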

How the data were processed

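Bulk RNA sequencing of 10 heart libraries was analysed from the authors' deposited table of expected counts per gene. Per the labels' protocols, a company prepared and sequenced the libraries, and STAR 2.5.2 aligned reads to GRCm39. The submitters' processing notes name RSEM 1.3.0. For strand setting, trimming and annotation release, nothing is given in the sources used here. Because RSEM shares reads that match several genes by estimation, near-identical and overlapping genes are uncertain. All deposited expected counts were whole and were used as they stood. Symbols and positions came from GENCODE M39, in which 78168 of 78298 identifiers were found, and the other 130 were kept without symbols.

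Groups were taken from the genotype label. Replicate numbers follow accession order and pair nothing. The 20 library pairs within groups differed by more than sampling noise (chi-square per degree of freedom 8.95 to 162), and all 10 libraries were kept as separate samples. Genes with few counts are the least precise at these totals.

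The test was edgeR 4.0.16 (R 4.3.3, quasi-likelihood F test, robust, TMM, no covariate) on genes kept by filterByExpr (minimum count 10), with Benjamini-Hochberg adjustment over all 16700 tested genes at 0.05. Standard errors are approximate, the size of the log2 fold change over the root of its F statistic. CPM used TMM-scaled totals of tested genes. Ratios were tested by exact permutation of the 252 divisions of 10 libraries, adjusted over the 6 ratios. Alternatives were other scalings, DESeq2 1.42.0, limma 3.58.1 voom (plain and quality-weighted), other filters, leaving out mitochondrially encoded genes, 1 surrogate variable from sva 3.50.0, leaving out libraries, a pseudocount of 1 CPM in the ratios, and another transcript length.

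The genes, lists and tests were chosen with earlier results of these data known. Named genes are the 10 calcium cycling genes, Mapk13, up to 3 genes of smallest p per list, called genes, and the 2 nearest profiles. Ryr1, Ryr3, Casq1, Jph1, Camk2g, Selenon, Sln, Atp2b2, D830005E20Rik, Gm47644 and Gm18736 were named after their values were seen. A few list genes are not reported here.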

Additional observations from a re-analysis of the deposited data

Results flagged for a closer look

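In 88 sets of 5 libraries, 20 had a highest or lowest value whose gap to the next exceeded 0.71 of the whole range, where chance gives about 1 in 20 for independent sets. That rate is no yardstick here, since the sets share the same libraries and Sln, Ryr1 and Strit1 were added after their values were seen. The sets cover the 10 calcium cycling genes, their 6 ratios, Mapk13 and 27 named genes of the lists, and the other list genes were not examined in this way. Among the calcium cycling genes, knockout-labelled library 4 stood apart for Slc8a1 (563 CPM), Casq2 (716 CPM) and Camk2d (167 CPM). WT-labelled library 1 stood apart for Camk2d (85.9 CPM, low) and Fkbp1b (0.417 CPM, high). The ratio of Fkbp1b to Ryr2 stood apart in knockout-labelled library 2 (0.000607) and in WT-labelled library 1 (0.000631).

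Among those 27 list genes, knockout-labelled library 4 stood apart for Atp1b1 (265 CPM) and Atp1b2 (14.7 CPM), both beta chains of the sodium pump. Knockout-labelled library 2 stood apart for Speg (142 CPM) and knockout-labelled library 3 for Ppp1r1a (0.19 CPM). WT-labelled library 1 was high for Mapk13 (6.41 CPM) and for Vmp1 (48.3 CPM), Atp2a1 (128 CPM), Ppp1r1a (2.11 CPM), Bin1 (18.6 CPM), Sln (104 CPM) and Ryr1 (20.98 CPM). WT-labelled library 4 stood apart for Camk2b (4.86 CPM, high) and Pde4d (16.6 CPM, low).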

How the results depend on the processing

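Under 22 alternatives, 0 of the 9 tested calcium cycling genes was called and 0 had an unadjusted p under 0.05. No paired analysis was possible because the labels carry no shared replicate number. The count of all genes called, 59, became 24 with scaling to ventricular markers, 118 with DESeq2 and 91 with limma voom quality weights, and 47 to 75 without single libraries. Without WT-labelled library 1 and knockout-labelled library 4 together it was 86. Scaling moved the median log2 fold change of all tested genes to -0.12 with library totals and to -0.11 with ventricular markers, beside -0.01. In the lists, 1 gene was called with no filter on low counts, where 67 of 43316 genes were called.

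The median of the 9 genes ranged from 0.01 to 0.24 without single libraries, and was 0.081 with library totals, 0.065 with ventricular markers, -0.01 with voom quality weights, 0.00 with 1 surrogate variable and -0.10 without WT-labelled library 1 and knockout-labelled library 4 together. Changes of sign, none called, were as follows. Jph2 was -0.062 with library totals, -0.049 with ventricular markers, -0.13 with voom quality weights, -0.14 with 1 surrogate variable and -0.21 without both of those libraries. Ryr2 was -0.015, -0.045 and -0.10 in the last 3 of these settings. Slc8a1 was -0.010 with voom quality weights. Without both libraries, Slc8a1 was -0.10, Atp2a2 -0.083, Casq2 -0.072 and the Fkbp1b to Ryr2 log2 difference 0.18, beside -0.14 with all libraries. Without single libraries, values ran from -0.22 to 0.033 for Hrc, -0.098 to 0.10 for Jph2, -0.017 to 0.25 for Slc8a1 and -0.15 to 0.0025 for Trdn. The ratio differences ran from -0.015 to 0.19 for Pln to Atp2a2, -0.052 to 0.052 for Slc8a1 to Atp2a2, -0.46 to 0.17 for Fkbp1b to Ryr2, -0.37 to -0.17 for Trdn to Casq2, -0.28 to -0.16 for Hrc to Atp2a2 and 0.023 to 0.13 for Casq2 to Ryr2. The cause of these changes of sign was not tested. Depth limits Fkbp1b most, with at most 19 counts in a library.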
